A study of Homo sapiens with 9 samples.

Results

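The integrated stress response factors described here are 10 genes: the eIF2α kinase gene EIF2AK4 (GCN2), the transcription factor genes ATF4, CEBPG, CEBPB, ATF3, ATF5 and DDIT3 (CHOP), and TRIB3, PPP1R15A (GADD34) and NUPR1, which act downstream of or back on them. They were chosen by gene symbol, with earlier results of these data known, among 58735 genes listed for each library. All 10 passed the filter on low counts that left 16188 genes for testing. The RNA came from MDA-MB-231 cells, an established mesenchymal triple-negative breast cancer line, in 9 libraries. The vehicle group (3 libraries) received DMSO, the erastin-R group (3 libraries) was made of cells that survived rising erastin concentrations, and the RSL3-R group (3 libraries) of cells that survived rising RSL3 concentrations. All groups share the line and carry no genetic change named in the labels. Erastin blocks cystine import through system xc-, and RSL3 blocks the lipid peroxide-reducing enzyme GPX4, and both can drive cells into ferroptosis, an iron-dependent death by lipid peroxidation. The doses and the schedule of the sequenced cells were not used here, so the groups may differ in dose and time as well as in agent. The labels do not say that the 3 libraries of a group came from separate cultures, and p values then measure only the spread between these libraries.

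In the integrated stress response, kinases that sense amino acid shortage, haem, double-stranded RNA or unfolded protein phosphorylate eIF2α, which slows translation of most mRNAs while the ATF4 mRNA, whose leader carries upstream open reading frames, is translated more. ATF4 then pairs with C/EBP proteins on C/EBP-ATF response elements in genes of amino acid uptake, amino acid synthesis and tRNA charging, and induces DDIT3, ATF3, TRIB3 and PPP1R15A. PPP1R15A brings a phosphatase to eIF2α and TRIB3 restrains ATF4, so that part of the response closes on itself. Much of this control acts on translation, which mRNA levels do not show.

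Total counts were 15405102 to 17273464 per library, and Pearson's r of log2 CPM (CPM, counts scaled to library size with the TMM factors of edgeR) between libraries was 0.985 to 0.991 within a group and 0.957 to 0.971 between groups. Erastin-R replicate 1 was the farthest from its group (r of 0.9846 and 0.9850 with the other 2 libraries, which had 0.9906 between them), and calls of members that change without it are given both ways. All 5 markers of the line were present in every library (VIM, CD44, EGFR, KRT18 and AXL, summed 3111 to 3586 CPM). KRT18 was lower in erastin-R than in vehicle cells (log2 fold change -1.12). The luminal markers summed to 4.97 to 9.24 CPM, with PGR at 2 counts or fewer, and the 7 markers of leukocytes, endothelium and fibroblasts summed to 10.1 to 25.2. Among the latter, CD3E and CDH5 had at most 4 counts, and PECAM1 and DCN were lower in erastin-R cells (log2 fold changes of -2.47 and -2.86). In RSL3-R cells DCN was also lower than in vehicle (-2.14) and PTPRC higher (1.67), and PTPRC and PECAM1 were higher than in erastin-R cells (1.97 and 2.83); their part in the results below was not tested.

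Of the 10 members, 9 had a RefSeq promoter window (GRCh38.p14, 250 bases before to 50 after a transcription start), and NUPR1 had none. The letters TTNCATCA, the core of the C/EBP-ATF response element, were searched on both strands, together with TGACGTCA (the cAMP response element) and the ER stress response element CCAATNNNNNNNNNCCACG; another search, CCAATNNNNNNNNNCCAC, dropped the last base of the ER stress response element, contains that element and was added after the promoter of DDIT3 had been seen. The sequences of the 30 bases around each match in a member are shown because they are the letters through which ATF4, its partners and the unfolded protein response are known to act, with the match in capitals and the gene's own strand written 5′ to 3′.
CEBPG, chr19:33374060-33374089, plus strand, match at position -42 from a start: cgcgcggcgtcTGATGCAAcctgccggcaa
ATF3, chr1:212565205-212565234, plus strand, match at -191 from a start: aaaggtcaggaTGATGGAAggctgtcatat
PPP1R15A, chr19:48872352-48872381, plus strand, match at -58: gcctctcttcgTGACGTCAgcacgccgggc
DDIT3, chr12:57520591-57520620, minus strand, match at -97 or -100 from its 2 listed starts: gcggggCCAATGCCGGCGTGCCACtttctg
CEBPG and ATF3 hold the C/EBP-ATF core on the other strand, PPP1R15A holds the cAMP response element, and DDIT3 holds the shortened ER stress element but not the full one. Of the 27305 genes with a window, 4.46% held the C/EBP-ATF core, 2.25% the cAMP response element, 0.0916% the full ER stress element and 0.381% the shortened one. A match is a description of letters in this window, not a bound site.

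Among 39 genes known to be induced through ATF4, listed by role below, 31 had a window and 12 of these (38.7%) held the C/EBP-ATF core, beside 4.46% of all genes with a window. The list was drawn from what is known of ATF4, in part through this element, so the share is no independent evidence. A few are shown, since their genes return in the results.
ASNS, chr7:97872458-97872487, minus strand, match at -68: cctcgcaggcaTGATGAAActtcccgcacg
CHAC1, chr15:40953251-40953280, plus strand, match at -209: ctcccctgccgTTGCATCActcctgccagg
CARS (RefSeq CARS1), chr11:3057407-3057436, minus strand, match at -2: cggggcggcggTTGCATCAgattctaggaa
SLC1A4, chr2:64989381-64989410, plus strand, match at -7: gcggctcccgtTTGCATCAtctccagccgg
The letters lie on the strand of the gene in CHAC1, CARS and SLC1A4, and on the other strand in CEBPG and ASNS.

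The leaders of the members' mRNAs were compared with those of all genes, because upstream open reading frames are what couples ATF4 to eIF2α. In the principal GENCODE 29 transcript, 8 of 10 members had at least 1 upstream frame starting with ATG, beside 49.0% of 19526 protein-coding genes; 6 of 10 had at least 2, beside 26.6%; and 4 of 10 had a frame that runs past the coding start out of frame, beside 16.2%. Members such as ATF4 are known for control through upstream frames, so these shares are no independent evidence. Leader length, which differed between members, was not matched. The 1 transcript read for ATF4 had a leader of 882 bases with 6 frames, the most of any member. Its overlapping frame was 63 codons long. Other ATF4 transcripts can have another leader and other frames, and they were not read. Whether this frame is the one that couples ATF4 to eIF2α was therefore not tested. DDIT3 had an upstream frame of 34 codons that ends before the coding start and an overlapping one of 73 codons, and ATF5 had frames of 3 and 59 codons, the second overlapping. PPP1R15A had 2 frames of 22 and 26 codons, both ending before the coding start. In the 1 transcript read for each, EIF2AK4, the kinase, and CEBPB had no frame starting before the annotated coding start. Frames starting after the coding start were not counted for any member.

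**Figure D1:**
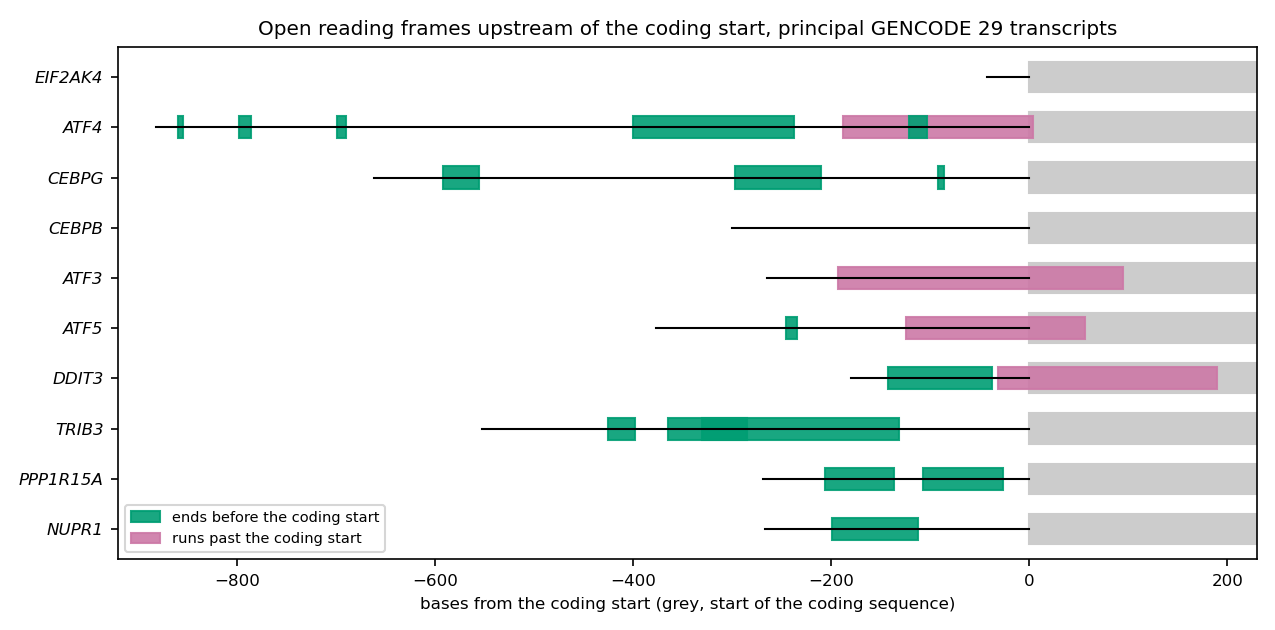
Upstream open reading frames of the 10 members, drawn to scale in bases from the coding start, with the leader as a line, frames that end before the coding start in green, frames that run past it in pink and the start of the coding sequence in grey. ATF4, ATF3, ATF5 and DDIT3 have a frame that runs past the coding start, and EIF2AK4 and CEBPB have no frame that starts before it in the transcript read.

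In the comparison of erastin-R with vehicle cells, CEBPB, ATF3, TRIB3, DDIT3 and NUPR1 rose by log2 fold changes of 1.41 to 1.80. In the comparison of RSL3-R with vehicle cells, NUPR1, TRIB3, DDIT3, ATF3, CEBPG and PPP1R15A rose by 1.19 to 3.59. A gene was called when its adjusted p (edgeR's quasi-likelihood test with Benjamini-Hochberg adjustment over the 16188 genes) was under 0.05 and its absolute log2 fold change at least 1. By this rule 5 of 10 members were called higher in erastin-R cells, beside 6.7% of all genes tested, and 6 of 10 in RSL3-R cells, beside 6.02%. No member was called lower in either, beside 6.66% and 4.08% of all genes; DESeq2 and limma with quantile normalization also called 0, and at an unadjusted p under 0.05 edgeR gave 1 lower member in the erastin-R and 0 in the RSL3-R group. By adjusted p alone, 9 members were higher and 1 lower in erastin-R cells (27.1% and 26.8% of all genes), and all 10 were higher in RSL3-R cells (23.8% higher and 24.9% lower among all genes). The median log2 fold change of the members was 1.11 in the erastin-R and 1.40 in the RSL3-R group, beside -0.0042 and 0.0052 over all genes tested. The members were chosen with earlier results of these data known. Their shares and medians, here and below, therefore describe the list and are no independent evidence. Both comparisons share the vehicle libraries, and in RNA of whole cultures a change in the share of cells cannot be told apart from a change in RNA per cell. The share of all genes tested whose libraries separate by group was not counted. Groups said below not to overlap therefore describe the gene named and are not read as particular to the members.

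**Figure D2:**
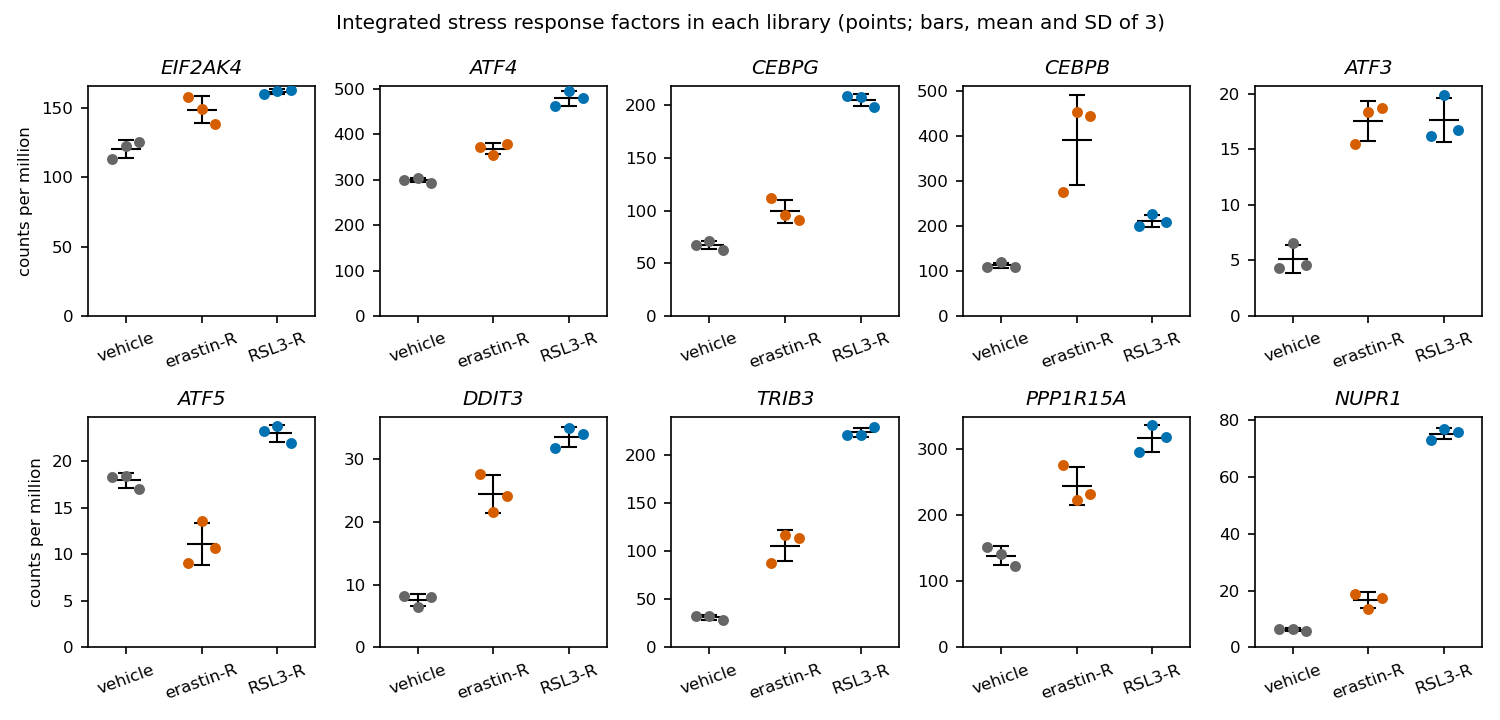
CPM (linear axis from 0) of each member in the 9 libraries, points in replicate order, with the mean and SD of 3 libraries in black. CEBPB is highest in erastin-R cells and ATF5 lowest there. In the other panels both treated groups lie above the vehicle group and RSL3-R mean levels are not below the erastin-R ones.

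EIF2AK4 (chr15:39934146-40035591, plus strand, GRCh38, as all gene positions here) encodes GCN2, the eIF2α kinase activated by uncharged tRNA. It had 113, 123 and 126 CPM in the vehicle libraries, 158, 149 and 139 in the erastin-R libraries and 160.3, 162 and 163 in the RSL3-R libraries. Every treated library lay above every vehicle library. The log2 fold change against vehicle was 0.30 (SE 0.06, adjusted p = 0.00122) in the erastin-R and 0.43 (SE 0.06, adjusted p = 9.21e-05) in the RSL3-R group, below the minimum fold. Between the treated groups the difference was 0.12 (95% confidence interval -0.01 to 0.26, adjusted p = 0.128), and its adjusted p was under 0.05 in 3 of 16 alternative fits: 0.00793 without erastin-R replicate 1, 0.0149 with limma after quantile normalization and 0.0438 with a filter on mean FPKM.

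ATF4 (chr22:39519695-39522685, plus strand), the central factor of the response, had 299.7, 303 and 294 CPM in the vehicle libraries, 371, 354 and 378 in the erastin-R libraries and 462, 496 and 479 in the RSL3-R libraries. The groups did not overlap, and the order vehicle, erastin-R, RSL3-R held for every library. The steps were small: ATF4 was 1.23-fold higher in erastin-R (log2 fold change 0.30, SE 0.05, adjusted p = 0.000340) and 1.6-fold higher in RSL3-R than in vehicle cells (0.68, SE 0.05, adjusted p = 2.19e-07), and RSL3-R was 0.38 above erastin-R (adjusted p = 5.67e-05). None of these passed the minimum fold, although many genes known to be induced through ATF4 did (below). The 4 ATF4 pseudogenes in the files, ATF4P1 to ATF4P4, had 0 to 8 counts per library, against 4760 to 8190 for ATF4.

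CEBPG (chr19:33373330-33382686, plus strand) and CEBPB (chr20:50190734-50192689, plus strand) are C/EBP family proteins that can pair with ATF4. Both were lowest in vehicle cells, and they differed in which treated group was higher. CEBPG had 67.3, 71.3 and 63.0 CPM in vehicle, 112, 95.5 and 90.7 in erastin-R and 209, 208 and 198 in RSL3-R libraries. CEBPB had 109, 119 and 108 in vehicle, 275, 453 and 445 in erastin-R and 199, 226 and 209 in RSL3-R libraries. The 3 groups of libraries were separate for both genes, with RSL3-R on top for CEBPG and erastin-R on top for CEBPB; erastin-R replicate 1 was well below the other erastin-R libraries for CEBPB.

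CEBPG was 3.05-fold higher in RSL3-R than in vehicle cells (log2 fold change 1.61, SE 0.08, adjusted p = 2.01e-09) and 0.56 higher on the log2 scale in erastin-R cells (SE 0.08, adjusted p = 4.20e-05), which missed the minimum fold. CEBPB was 3.48-fold higher in erastin-R cells (1.80, SE 0.14, adjusted p = 2.18e-07) and 0.91 higher on the log2 scale in RSL3-R cells (SE 0.14, adjusted p = 0.000119), which also missed it. The antisense gene CEBPB-AS1 shares 231 bases, 11.8% of the CEBPB exons, and had 8 to 26 counts per library.

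ATF3 (chr1:212565334-212620777, plus strand), a bZIP factor induced early in many stresses, rose in both treated groups. It had 4.29, 6.55 and 4.56 CPM in vehicle, 15.4, 18.4 and 18.7 in erastin-R and 16.2, 19.9 and 16.8 in RSL3-R libraries. Both treated groups lay above vehicle and overlapped each other. The log2 fold changes against vehicle were 1.77 and 1.78 (SE 0.16 each, adjusted p = 6.69e-07 and 7.14e-07), and the difference between the treated groups was 0.01 (95% confidence interval -0.29 to 0.31, adjusted p = 0.965), whose sign changed when erastin-R replicate 1 (-0.08) or RSL3-R replicate 2 (-0.09) was left out.

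ATF5 (chr19:49928702-49933935, plus strand), an ATF4 relative whose mRNA is also translated more when eIF2α is phosphorylated, was the only member lower in a treated group. It had 18.3, 18.4 and 17.0 CPM in vehicle, 9.05, 13.6 and 10.6 in erastin-R and 23.2, 23.7 and 21.9 in RSL3-R libraries. Vehicle lay between the treated groups without overlap. The log2 fold change against vehicle was -0.69 in erastin-R (SE 0.13, adjusted p = 0.000431) and 0.36 in RSL3-R cells (SE 0.12, adjusted p = 0.0261), both short of the minimum fold, and the second had an adjusted p under 0.05 in 12 of 16 alternative fits (up to 0.0914). ATF5 shares 21.2% of its exon bases with NUP62 on the opposite strand, and a few with IL4I1 (2 to 10 counts) and MIR4751 (0 counts). NUP62, a nuclear pore gene, had 2063 to 2202 counts in vehicle, 1239 to 1376 in erastin-R and 1158 to 1441 in RSL3-R libraries. It was thus lower in both treated groups (log2 fold changes of -0.70 and -0.68). For the erastin-R group, the drop of NUP62 was nearly the same as that of ATF5 (-0.69). For the RSL3-R group, the signs differed, with ATF5 at 0.36. Whether NUP62 reads entered the ATF5 count was not tested.

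DDIT3 (chr12:57516588-57521737, minus strand) encodes CHOP, a C/EBP family factor linked to cell death under prolonged stress. It had 8.11, 6.48 and 8.02 CPM in vehicle, 27.5, 21.6 and 24.1 in erastin-R and 31.7, 34.9 and 33.9 in RSL3-R libraries, and the groups did not overlap. It was 3.24-fold higher in erastin-R (log2 fold change 1.69, SE 0.12, adjusted p = 7.33e-08) and 4.44-fold higher in RSL3-R than in vehicle cells (2.15, SE 0.12, adjusted p = 6.07e-09). The 2 treated groups differed by 0.46 (SE 0.11, adjusted p = 0.00291), short of the minimum fold.

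DDIT3 is the member whose count is least certain, since 39.6% of its exon bases are shared with other genes, most of them (355 bases, 27.2%) with MARS on the opposite strand and the rest with MBD6 (698 to 1210 counts) and AC022506.1 (0 counts). MARS, the methionyl-tRNA synthetase gene, had 2520 to 2741 counts in vehicle, 3604 to 3806 in erastin-R and 6400 to 7447 in RSL3-R libraries, while DDIT3 had 105 to 136, 339 to 462 and 491 to 580. MARS was higher too, by log2 fold changes of 0.52 and 1.40 against vehicle, and between the treated groups RSL3-R was 0.88 higher for MARS and 0.46 higher for DDIT3. The paper's methods describe no library step that keeps strand. Where counting does not use strand, reads of the 2 genes cannot be told apart in the shared bases. MIR616, annotated within the DDIT3 gene body on the same strand and sharing no exon base with it, had 8, 13 and 8 counts in vehicle, 36, 21 and 27 in erastin-R and 57, 65 and 47 in RSL3-R libraries (log2 fold changes of 1.52 and 2.55, adjusted p = 0.00146 and 1.19e-05), in the same order as DDIT3; reads of the host transcript and of a miRNA precursor cannot be told apart here.

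TRIB3 (chr20:362835-397559, plus strand), a pseudokinase that ATF4 and CHOP induce and that restrains ATF4, had 32.6, 32.9 and 28.3 CPM in vehicle, 87.6, 116 and 113 in erastin-R and 220.4, 221 and 229 in RSL3-R libraries. The groups were far apart. It was 3.38-fold higher in erastin-R (log2 fold change 1.76, SE 0.10, adjusted p = 1.08e-08) and 7.15-fold higher in RSL3-R than in vehicle cells (2.84, SE 0.10, adjusted p = 1.28e-10).

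PPP1R15A (chr19:48872392-48876057, plus strand), the inducible eIF2α phosphatase subunit, had 152, 142 and 123 CPM in vehicle, 276, 223 and 232 in erastin-R and 295, 336 and 319 in RSL3-R libraries. The groups did not overlap, though the highest erastin-R library came near the lowest RSL3-R one. It was 2.28-fold higher in RSL3-R than in vehicle cells (log2 fold change 1.19, SE 0.09, adjusted p = 1.73e-07), and in erastin-R cells its 0.81 (SE 0.09, adjusted p = 5.66e-06) missed the minimum fold.

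NUPR1 (chr16:28532708-28539174, minus strand), a small chromatin-associated stress protein, showed the largest rise of the members in RSL3-R cells. It had 6.62, 6.36 and 5.74 CPM in vehicle, 18.9, 13.6 and 17.4 in erastin-R and 72.9, 76.8 and 75.9 in RSL3-R libraries. No group came near the next. It was 2.67-fold higher in erastin-R (log2 fold change 1.41, SE 0.12, adjusted p = 5.45e-07) and 12-fold higher in RSL3-R than in vehicle cells (3.59, SE 0.12, adjusted p = 7.85e-11).

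**Figure D3:**
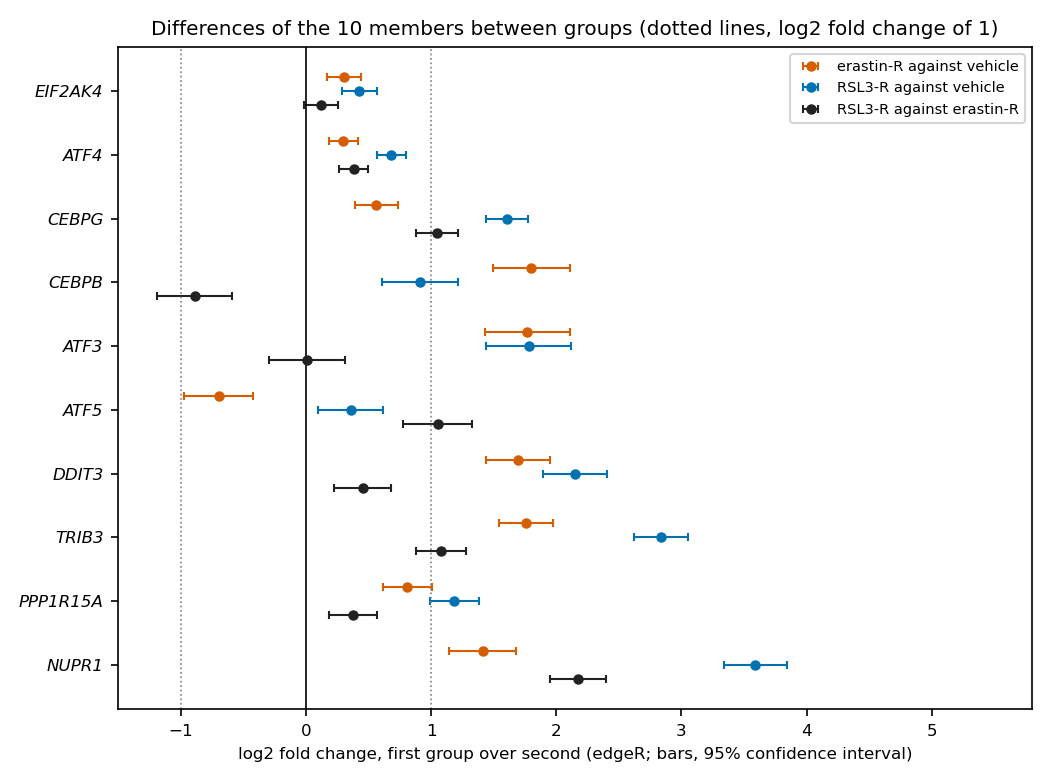
Log2 fold changes of the 10 members with 95% confidence intervals in the 3 comparisons (orange, erastin-R over vehicle; blue, RSL3-R over vehicle; black, RSL3-R over erastin-R), with dotted lines at the minimum fold. NUPR1 reaches 3.59 in RSL3-R cells, ATF4 stays below 1 in all comparisons, ATF5 is below 0 in erastin-R cells and CEBPB is below 0 in the direct comparison.

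In the direct comparison of RSL3-R with erastin-R cells, 4 of 10 members were called higher, beside 6.86% of all genes: NUPR1 (log2 fold change 2.17, SE 0.10, adjusted p = 3.55e-09), TRIB3 (1.08, SE 0.09, adjusted p = 7.93e-07), ATF5 (1.05, SE 0.13, adjusted p = 1.58e-05) and CEBPG (1.05, SE 0.08, adjusted p = 1.95e-07). None was called lower, beside 3.48%; DESeq2 and limma also called 0, and 1 member, CEBPB, was lower at an unadjusted p under 0.05 (-0.89, SE 0.14, adjusted p = 0.000141). Of these calls, that of NUPR1 was the one furthest from the minimum fold. Without erastin-R replicate 1, 2 members were called higher, NUPR1 and CEBPG, and 1 lower, CEBPB at -1.09; TRIB3 then stood at 0.96 and ATF5 at 0.92. Without erastin-R replicate 3, CEBPG stood at 0.98. By adjusted p alone, 7 members were higher and 1 was lower (22.3% and 26.9% of all genes). The median of the members was 0.42, beside -0.024 over all genes. The split of calls over all genes, 1111 higher and 563 lower, became 903 and 736 with quantile normalization.

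Levels of different members were compared per length, as FPKM, the deposited value scaled to library size and exon length. In vehicle cells ATF4 was highest at 118 ± 1.72 FPKM (SD, n = 3), followed by CEBPB at 56.8 ± 3.03, PPP1R15A at 44.5 ± 4.57 and CEBPG at 15.1 ± 0.905. EIF2AK4 (9.98) and TRIB3 (9.0) overlapped, as did ATF5 (6.0) and DDIT3 (5.71), and ATF3 (1.26) and NUPR1 (1.09) were lowest and also overlapped. The 2 members with the lowest level in vehicle cells were thus among those that rose in both treated groups.

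In erastin-R cells CEBPB reached 197 ± 51.2 FPKM and overlapped ATF4 at 144 ± 5.15. TRIB3, at 30.4 ± 4.64, lay above CEBPG (22.2) without overlap, and DDIT3 (18.4) lay above EIF2AK4 (12.3), while ATF5, at 3.70 ± 0.765, overlapped both ATF3 (4.27) and NUPR1 (2.89). The gap between TRIB3 and CEBPG was narrow in erastin-R replicate 1, at 25.0 and 24.8 FPKM. In RSL3-R cells ATF4 was again alone on top at 189 ± 6.49 FPKM, CEBPB (107) and PPP1R15A (102) overlapped, and TRIB3 (64.5 ± 1.48) was again above CEBPG (46.1 ± 1.21). DDIT3 (25.4 FPKM) again stood above EIF2AK4 (13.4) and NUPR1 (13.1), which overlapped. FPKM divides by the exon length summed over all transcripts of a gene, 5674 bases for NUPR1 and 1307 for DDIT3, so a gene with a long rarely used transcript is understated.

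**Figure D4:**
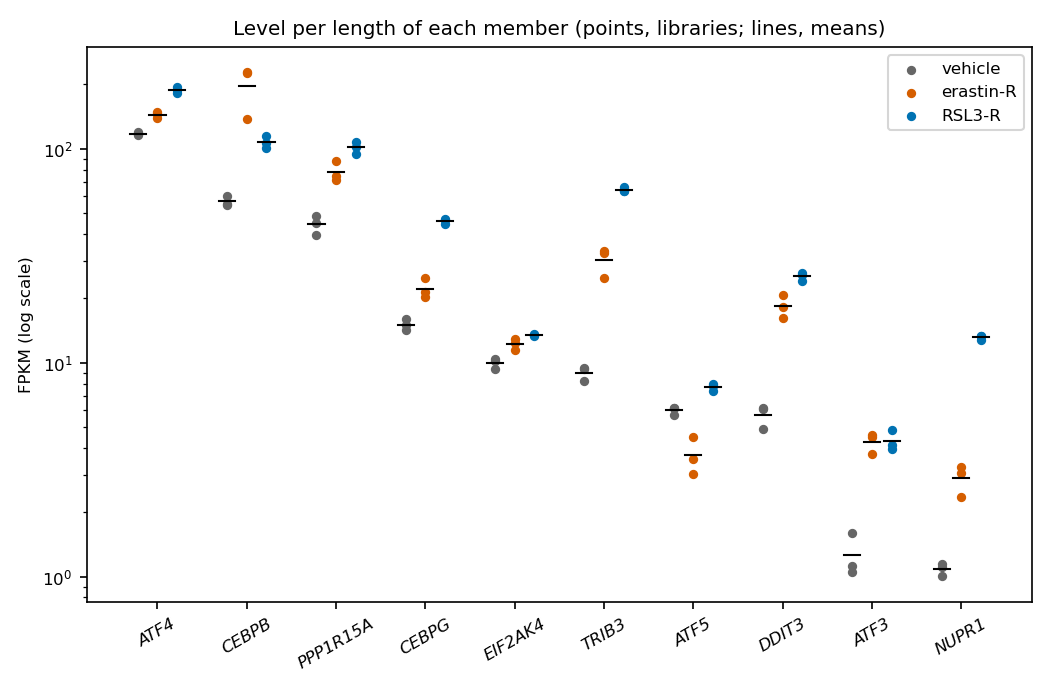
FPKM (log axis) of the members in each library, ordered by the vehicle mean, with means as black lines and groups by colour (grey, vehicle; orange, erastin-R; blue, RSL3-R). CEBPB passes ATF4 in 2 of the 3 erastin-R libraries, TRIB3 lies above CEBPG in both treated groups (narrowly in erastin-R replicate 1), and NUPR1 is higher in the order in RSL3-R cells than in the other groups.

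The genes whose log2 CPM followed ATF4 most closely over the 9 libraries were CD22 (Pearson's r = 0.993), CARS (0.992) and DNHD1 (0.991). CD22, a lectin gene best known from B cells, had 3.70, 7.85 and 21.7 CPM in vehicle, erastin-R and RSL3-R cells on average. CARS, the cysteinyl-tRNA synthetase gene, had 102, 147 and 266. The genes closest to DDIT3 were RNF41 (r = 0.994), TXNIP (0.993) and HSPA5 (0.993), the last the ER chaperone BiP. Among the members, ATF4 and NUPR1 had r = 0.995, and CEBPB and ATF5 had r = -0.520. These values describe 9 libraries that fall into 3 groups, so they reflect the order of the group means, and they carry no p.

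Many of the genes known to be induced through ATF4 rose beside the members in both treated groups. Of 39 such genes, members not included, 38 were tested; 13 were called higher in the erastin-R and 30 in the RSL3-R group against vehicle, and 9 in RSL3-R against erastin-R cells, beside 6.7%, 6.02% and 6.86% of all genes tested, the background for the lists below as well. The medians were 0.73, 1.39 and 0.72, beside -0.0042, 0.0052 and -0.024 over all genes. None was called lower in any comparison by edgeR, DESeq2 or limma, and at an unadjusted p under 0.05 edgeR gave 1 lower gene (PSPH) for erastin-R against vehicle, 0 for RSL3-R against vehicle and 4 in the direct comparison. Without erastin-R replicate 1 the counts were 15, 31 and 10, with 6 of the enzymes and 3 of the transporters described next called higher in erastin-R cells. The lists were written with earlier results of these data known and are described here by their counts.

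Of the 11 genes of amino acid and one-carbon metabolism, 5 were called higher in the erastin-R and all 11 in the RSL3-R group. ASNS, asparagine synthetase, whose promoter window is shown above, had 2.09, 1.73 and 2.10 CPM in vehicle, 27.0, 30.4 and 25.8 in erastin-R and 27.3, 29 and 26.4 in RSL3-R libraries. The treated groups lay above vehicle by log2 fold changes of 3.81 and 3.80 and overlapped each other (difference -0.01, adjusted p = 0.955). CTH, which makes cysteine from cystathionine, rose by 2.64 and 2.90, and PHGDH, the entry enzyme of serine synthesis, by 1.38 and 2.24. PCK2, the mitochondrial phosphoenolpyruvate carboxykinase, rose by 1.35 and 2.25.

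Of the 8 amino acid transporter genes, 2 were called higher in the erastin-R and 5 in the RSL3-R group. SLC7A11, the cystine-importing subunit of system xc-, had 30.1, 30.2 and 31.3 CPM in vehicle, 213, 213 and 195 in erastin-R and 178, 178 and 172 in RSL3-R libraries. It rose by log2 fold changes of 2.76 and 2.53, and erastin-R was above RSL3-R without overlap (-0.23, adjusted p = 0.00371), the reverse of the order of ATF4. SLC1A5, a glutamine transporter, rose by 1.16 and 1.28. SLC1A4, whose core element is shown above, rose by 2.33 in RSL3-R cells and missed the minimum fold in erastin-R cells (0.66). SLC6A9, a glycine transporter, was called in RSL3-R cells alone (1.35, against -0.20 in erastin-R cells), and RSL3-R was 1.55 above erastin-R (adjusted p = 1.79e-07).

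Of the 9 genes of tRNA charging and export, none was called in erastin-R cells by edgeR, DESeq2 or limma, and 7 were called in RSL3-R cells. All 9 were higher in erastin-R cells at an unadjusted and an adjusted p under 0.05 (27.1% of all genes by adjusted p). The largest rises in RSL3-R cells were WARS (log2 fold change 1.77), SARS (1.71) and GARS (1.67), the tryptophanyl-, seryl- and glycyl-tRNA synthetases. In erastin-R cells the same genes had 0.62, 0.76 and 0.91.

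Of the 10 stress effector genes tested, 6 were called higher in the erastin-R and 7 in the RSL3-R group. GDF15, a secreted stress cytokine, had 9.42, 9.94 and 10.4 CPM in vehicle, 69.1, 103 and 99.7 in erastin-R and 156, 167 and 164 in RSL3-R libraries. It rose by log2 fold changes of 3.19 and 4.03. CHAC1, which degrades glutathione, rose by 2.24 and 3.84, and RSL3-R was 1.6 above erastin-R (adjusted p = 9.25e-08). ADM2, a secreted peptide, rose by 2.29 and 3.27.

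A pair of secreted-factor genes was near 0 in vehicle cells. INHBE, an inhibin subunit, had 1, 3 and 3 counts in vehicle, 31, 22 and 23 in erastin-R and 102, 94 and 111 in RSL3-R libraries, and the medians of the lists were the same with INHBE set against 3 counts. FGF21, not tested, had 0 counts in all vehicle and erastin-R libraries, which allows up to 0.176 to 0.195 CPM in each, and 6, 14 and 14 counts in RSL3-R libraries. These limits cover counting error only.

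**Figure D5:**
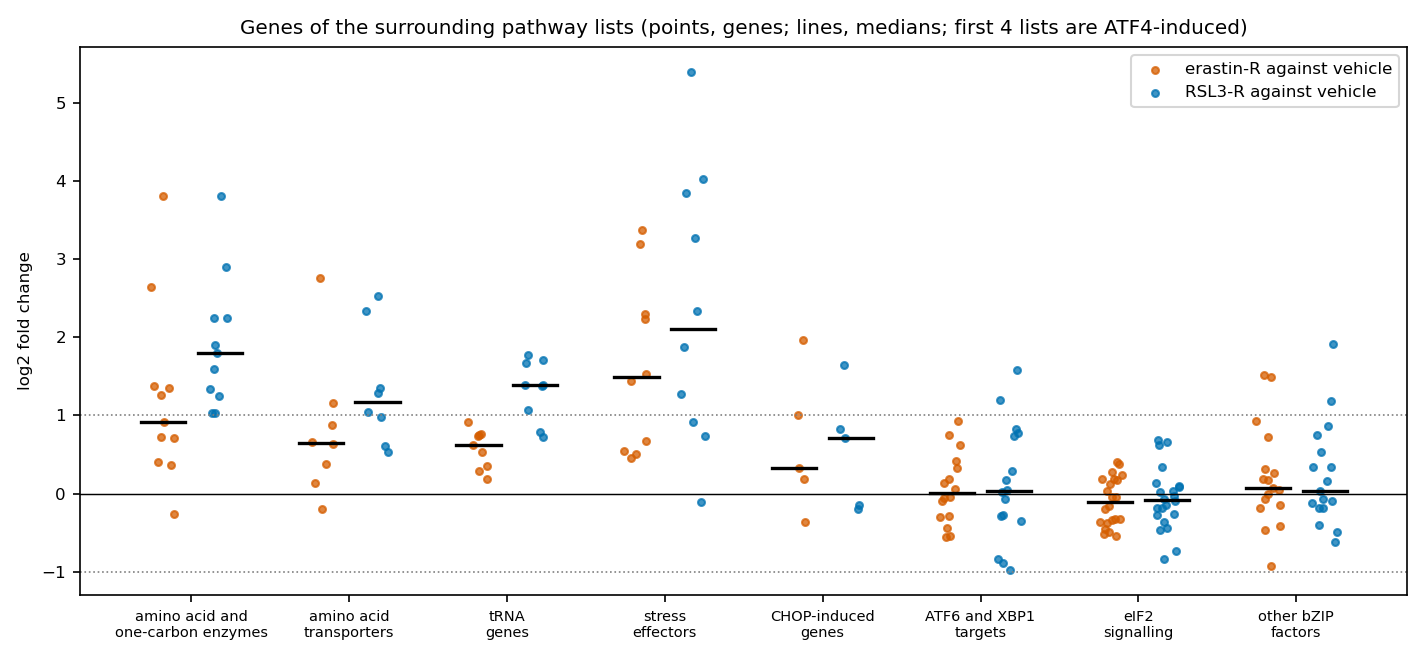
Log2 fold changes against vehicle of the genes of 8 lists (points, genes tested; black lines, medians; orange, erastin-R; blue, RSL3-R; dotted lines, minimum fold). The 4 ATF4-induced lists at the left lie mostly above 0, with larger medians for RSL3-R, and the medians of the ATF6 and XBP1 targets, eIF2 signalling genes and other bZIP factors lie near 0.

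Of 16 chaperone and ER-associated degradation genes known as ATF6 or XBP1 targets in the other arms of the unfolded protein response, none was called in erastin-R cells by edgeR, DESeq2 or limma (5 higher and 5 lower at an unadjusted p under 0.05), beside 6.7% of all genes called higher and 6.66% lower. In RSL3-R cells 2 were called higher, beside 6.02% of all genes: DNAJB9, a BiP co-chaperone (log2 fold change 1.58, SE 0.08), and HERPUD1, of ER-associated degradation (1.20, SE 0.07); none was called lower by edgeR or DESeq2, 1 by limma, and 6 were lower at an unadjusted p under 0.05. The medians were 0.0034 and 0.036, beside -0.0042 and 0.0052 over all genes. By adjusted p alone, 4 were higher and 5 lower in erastin-R cells (27.1% and 26.8% of all genes). In RSL3-R cells 7 were higher and 6 lower (23.8% and 24.9%). HSPA5 (BiP), in this list, had 845, 1298 and 1449 CPM in vehicle, erastin-R and RSL3-R cells on average. Its log2 fold changes of 0.62 and 0.78 were short of the minimum fold. Between the treated groups, SDF2L1 was called lower in RSL3-R cells (-1.30, adjusted p = 9.51e-05), with 12.2, 22.5 and 23.0 CPM in erastin-R and 7.87, 8.02 and 7.42 in RSL3-R libraries.

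The 5 genes known to be induced by CHOP gave 2 calls in the erastin-R group and 1 in the RSL3-R group. BBC3, encoding the BH3-only protein PUMA, had 7.63, 8.21 and 6.97 CPM in vehicle, 23.0, 32.4 and 33.5 in erastin-R and 21.1, 26.9 and 23.7 in RSL3-R libraries. It rose by log2 fold changes of 1.96 and 1.65. GADD45A rose by 1.01 in the erastin-R group and had 0.83 in the RSL3-R group, below the minimum fold; limma with quantile normalization called 1 gene of the list in erastin-R cells. By adjusted p alone, 3 of the 5 were higher and 1 lower in erastin-R cells (27.1% and 26.8% of all genes). In RSL3-R cells the counts were the same (23.8% and 24.9%). In the direct comparison 2 were higher and 2 lower (22.3% and 26.9%), and none was called. The medians were 0.33 and 0.71 against vehicle and -0.18 in the direct comparison.

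Beside the members EIF2AK4 and PPP1R15A, 22 other genes of the machinery around eIF2α were listed. Of these (the kinases EIF2AK1 to EIF2AK3, their activators, the eIF2 and eIF2B subunits, other phosphatase subunits and reinitiation factors), none was called in any comparison by edgeR, DESeq2 or limma. At an unadjusted p under 0.05, 7 were higher and 9 lower in erastin-R against vehicle cells, 3 were higher and 7 lower in RSL3-R against vehicle cells, and 9 were higher and 8 lower in the direct comparison. By adjusted p alone, 5 were higher and 9 lower in erastin-R cells (27.1% and 26.8% of all genes). In RSL3-R cells 3 were higher and 7 lower (23.8% and 24.9%), and in the direct comparison 9 and 7 (22.3% and 26.9%). The medians against vehicle were -0.10 and -0.081, beside -0.0042 and 0.0052 over all genes.

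Of 19 other bZIP factor genes, 17 were tested, and CEBPA and CEBPE had at most 3 counts. Against vehicle, 2 were called higher and none lower in each treated group by edgeR, DESeq2 and limma (3 and 5 lower at an unadjusted p under 0.05). Among all genes tested, 6.7% and 6.02% were called higher and 6.66% and 4.08% lower. In the direct comparison edgeR called 1 higher and 1 lower (6.86% and 3.48% of all genes). By adjusted p alone, 6 were higher and 3 lower in erastin-R cells (27.1% and 26.8% of all genes). In RSL3-R cells 7 were higher and 4 lower (23.8% and 24.9%). Without erastin-R replicate 1, 3 were called higher and 1 lower in erastin-R cells. JDP2, a repressor related to ATF3, was called in both treated groups (log2 fold changes of 1.52 and 1.91), with 8.47, 10.5 and 8.70 CPM in vehicle, 25.7, 26.3 and 27.5 in erastin-R and 34.4, 38.1 and 31.6 in RSL3-R libraries. XBP1, the factor of the IRE1 arm, was called in RSL3-R cells (1.18) and had 0.93 in erastin-R cells. CEBPD had 41.2, 42.0 and 36 CPM in vehicle, 84.5, 122 and 130.2 in erastin-R and 26.6, 34.4 and 29.5 in RSL3-R libraries. It rose by 1.5 in the erastin-R group and lay below vehicle in the RSL3-R group (-0.40, adjusted p = 0.0356), and RSL3-R was 1.89 below erastin-R on the log2 scale (log2 fold change -1.89, adjusted p = 2.26e-07). CEBPB and CEBPD, both C/EBP genes, were thus highest in erastin-R cells, where CEBPG was not.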

How the data were processed

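RNA was poly(A) selected and sequenced in 9 libraries of MDA-MB-231 cells. The paper's methods name the NEBNext Ultra RNA Library Prep Kit and describe no step that keeps strand. The authors deposited a raw count per gene and FPKM values made from the same counts. According to the submitters' processing notes HISAT2 2.0.5 and featureCounts 1.5.0-p3 were used, and the methods keep uniquely mapped reads in exons; whether strand was used and the genome build are not given in the sources used here, but all 58735 gene coordinates equal those of GENCODE 29 (GRCh38). Groups came from the treatment label.

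Counts were analysed with edgeR 4.0.16 in R 4.3.3 (TMM, filterByExpr, 1 quasi-likelihood model of all 9 libraries, no covariate) and checked on simulated data. The p values were adjusted by Benjamini-Hochberg over 16188 genes. CPM were TMM-scaled. The common dispersion gave a coefficient of variation of 8.56%, and a floor of 3 counts was 0.174 to 0.195 CPM. Upstream frames were read from GENCODE 29 transcripts, 1 principal transcript per gene and 1 frame per stop codon, and motifs from RefSeq promoters. FPKM served for levels between genes and 1 alternative filter. Python 3.11.15 and matplotlib 3.10.9 drew the figures. Alternatives were no filter, a mean FPKM of at least 1, DESeq2 size factors, limma 3.58.1 with quantile normalization, DESeq2 1.42.0, only the 2 groups compared, a replicate block, omission of each library in turn, no minimum fold change, and an unadjusted p with a fold change above 2.

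The members and lists were chosen with earlier results of these data known. Genes named are all members, the 3 largest changes among called genes of each list in each comparison with vehicle, list genes under 4 counts, the 3 genes most like ATF4 and DDIT3, and genes overlapping members; PSPH, FGF21, SDF2L1 and the genes of the closing section were named after their values were seen. The values of 1 marker gene are not reported here.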

Additional observations from a re-analysis of the deposited data

How the results depend on the processing

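Over 16 settings, 25 of the 30 log2 fold changes of members kept their call and sign. Dropping the minimum fold change moved the counts most: members called higher became 9, 10 and 7 in erastin-R against vehicle, RSL3-R against vehicle and RSL3-R against erastin-R, members called lower became 1 in the first and 1 in the last, ATF4-induced genes called higher became 34 and 30 in the first and last, and ATF6 and XBP1 targets called higher became 4, 7 and 7. By the same rule 5, 6 and 5 of the 16 ATF6 and XBP1 targets were lower. Among all genes tested, 27.1%, 23.8% and 22.3% were then higher and 26.8%, 24.9% and 26.9% lower. Leaving out 1 library at a time gave 2 to 4 members called higher and 0 to 1 called lower in the direct comparison, the extremes without erastin-R replicate 1, where CEBPB was -1.09, TRIB3 0.957 and ATF5 0.924, and CEBPG was 0.98 without erastin-R replicate 3. ATF3 changed sign there between the treated groups, to -0.0768 without erastin-R replicate 1 and -0.0858 without RSL3-R replicate 2 (range over all single omissions -0.0858 to 0.102), with adjusted p of 0.631 to 1 over all settings. The replicate block gave 5, 6 and 4 members called higher, 13, 30 and 9 ATF4-induced genes and 0, 2 and 0 ATF6 and XBP1 targets, so it changed none of these counts. Deviations of libraries with the same number had a mean r of -0.0021 (9 pairs), beside 0.0011 for different numbers (18 pairs). No deviation shared by number was thus seen. The labels do not say whether the numbers pair the samples, and these values cannot decide it. Low counts limit ATF3, NUPR1 and DDIT3 in vehicle cells, with 72 to 136 counts per library.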

Other observations

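Some values were singled out after they had been seen. GCN1, whose protein activates GCN2 on stalled ribosomes, had 435 to 451 CPM in vehicle, 535 to 595 in erastin-R and 358 to 369.6 in RSL3-R libraries, so the treated groups lay on opposite sides of vehicle. IMPACT, an inhibitor of GCN2, was higher in RSL3-R than in vehicle cells by 0.66 on the log2 scale (adjusted p = 0.000169), with -0.04 for erastin-R cells. PPP1R15B, the constitutive partner of the eIF2α phosphatase beside PPP1R15A, had log2 fold changes of 0.41 and 0.62, and PPP1CA, a catalytic subunit of that phosphatase, -0.54 and -0.84.

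DDIT4, an inhibitor of mTOR signalling and an ATF4-induced gene, had 182 CPM in erastin-R replicate 1 and 279.6 and 289 in the other erastin-R libraries, beside 133 to 180.2 in vehicle and 136 to 159 in RSL3-R libraries. NFE2L1, a bZIP factor of proteasome gene control, was higher in RSL3-R than in vehicle cells by 0.87 on the log2 scale, with -0.07 for erastin-R cells, and RSL3-R was 0.94 above erastin-R (edgeR's quasi-likelihood test, adjusted p = 3.13e-08).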
